A study of Mus musculus with 8 samples.

Results

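HSP90 is the heat shock protein that folds and holds signalling proteins such as kinases and steroid receptors, and its co-chaperones load, time and direct that work. The 9 genes described here are Hsp90aa1 and Hsp90ab1, which encode the cytosolic HSP90 proteins, and the co-chaperone genes Stip1, Ahsa1, Chordc1, Fkbp4, Cdc37, Ptges3 and Fkbp5. They were chosen by Ensembl gene identifier, and they are 9 of 28785 genes listed in at least 1 of 4 RNA-seq libraries. The cells were mouse embryonic fibroblasts (connective tissue cells cultured from embryos) of strain C57BL/6J and genotype TSC2+/+, which all groups share. The PostHS cells were held at 42 °C for 1 h and then kept at 37 °C for 3 h, and the Control cells had no heat shock. RNA came from the chromatin pellet or from the cytoplasmic fraction, which gave chromatin PostHS, chromatin Control, cytoplasm PostHS and cytoplasm Control with 1 library per group. Left out here were 2 chromatin libraries immunoprecipitated for the RNA modification m6A and the 2 inputs that go with them.

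HSP90 works as a dimer that closes around a client protein when it binds ATP and reopens when the ATP is spent. Stip1 brings clients from HSP70, Cdc37 brings kinases, Ahsa1 speeds the ATP cycle, and the p23 protein encoded by Ptges3 holds the closed form. After heat shock the transcription factor HSF1 binds heat shock elements, inverted repeats of a short unit, and raises transcription of many chaperone genes. RNA on chromatin includes transcripts still being made, while cytoplasmic RNA is mostly finished mRNA, so the fractions report on different stages of the same gene's RNA.

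Promoter windows are shown because heat shock elements are the known route by which heat shock acts on chaperone genes. RefSeq windows of GRCm38.p6, from 250 bases before to 50 bases after the gene start, were at hand for 7 of the 9 genes, all but Hsp90aa1 and Hsp90ab1. The Ahsa1 window, chr12:87266478-87266777 on the plus strand, lay inside the RefSeq gene span given below, which begins at 87266415. The heat shock element was searched on both strands as the 2-unit forms GAANNTTC and TTCNNGAA, and as the 3-unit form made of 2 such overlapping pairs, which contains the 2-unit form. Of 32851 promoter windows, 15.1% held a 2-unit form and 0.603% a 3-unit form. Among the 7 windows, those of Chordc1, Fkbp4 and Cdc37 held a 2-unit form, and that of Chordc1 held the 3-unit form. Chordc1 had a run of 5 units from position -4 to position 19, counted with the gene start as position 1, and a further pair from position 34 to position 41. A search for runs of 5 units, made after this run was seen, found 1 such window among the 32851, that of Chordc1. The single pair in Fkbp4 began at position -151 and that in Cdc37 at position -170. Stip1 held no 2-unit form but a TATAAA box at position -30, a motif found on either strand in 13.6% of windows. The windows of Ahsa1, Ptges3 and Fkbp5 held none of these motifs, but for Ahsa1 the bases around the start of that span were not searched. A match is a description of the sequence and does not show binding. The 4 windows with a match are shown 5′ to 3′ on the gene's own strand, with capitals for the units of the heat shock element and for the TATAAA box. They lie at chr9:18292017-18292316 on the plus strand (Chordc1), chr6:128438607-128438906 on the minus strand (Fkbp4), chr9:21149885-21150184 on the minus strand (Cdc37) and chr19:7039977-7040276 on the minus strand (Stip1).
Chordc1: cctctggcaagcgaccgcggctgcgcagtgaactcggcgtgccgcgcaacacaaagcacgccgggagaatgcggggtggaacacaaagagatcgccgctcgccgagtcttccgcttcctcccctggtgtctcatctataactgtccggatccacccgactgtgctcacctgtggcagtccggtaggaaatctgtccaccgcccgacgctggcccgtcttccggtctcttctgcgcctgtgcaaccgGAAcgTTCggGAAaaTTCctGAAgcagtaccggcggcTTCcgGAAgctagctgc
Fkbp4: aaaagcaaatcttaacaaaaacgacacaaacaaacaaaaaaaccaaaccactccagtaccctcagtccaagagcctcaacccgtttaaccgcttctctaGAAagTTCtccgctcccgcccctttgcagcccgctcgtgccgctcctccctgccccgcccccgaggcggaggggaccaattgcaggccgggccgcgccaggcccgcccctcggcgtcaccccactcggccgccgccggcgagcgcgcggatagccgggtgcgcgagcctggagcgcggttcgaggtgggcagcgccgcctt
Cdc37: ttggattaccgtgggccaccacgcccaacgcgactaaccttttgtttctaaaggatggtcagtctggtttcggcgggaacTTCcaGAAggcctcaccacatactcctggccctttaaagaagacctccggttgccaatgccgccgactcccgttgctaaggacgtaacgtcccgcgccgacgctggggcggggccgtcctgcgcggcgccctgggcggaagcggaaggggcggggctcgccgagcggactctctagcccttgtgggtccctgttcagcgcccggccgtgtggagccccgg
Stip1: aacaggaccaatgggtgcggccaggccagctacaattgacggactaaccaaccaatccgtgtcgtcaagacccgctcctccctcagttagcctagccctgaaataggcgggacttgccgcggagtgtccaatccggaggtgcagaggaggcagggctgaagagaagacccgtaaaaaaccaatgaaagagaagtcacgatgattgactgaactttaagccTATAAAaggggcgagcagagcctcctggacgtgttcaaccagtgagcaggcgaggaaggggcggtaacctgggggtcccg

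The values are RPKM as the authors computed them, that is, reads scaled to the length of the gene and to the total reads of the library. Library totals recovered from the RPKM values were 19536459 reads for chromatin PostHS, 18364642 for chromatin Control, 11131382 for cytoplasm PostHS and 8292312 for cytoplasm Control. All 9 genes were listed in all 4 libraries, with at least 107 reads each, and all passed the minimum of 50 reads over the 2 libraries of every comparison. Intervals are exact 95% Clopper-Pearson intervals on reads. They cover counting error of reads only. PCR copies of 1 molecule were not told apart, so the intervals can be too narrow for counts of molecules. With 1 library per group there was no replicate spread and no test, so a difference describes these libraries. The ratios do not separate fewer cells of a kind from less RNA per cell. Markers of fibroblasts, of other cell types and of the fractions were not analysed here, since the identifiers were not paired with gene symbols.

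The gene length behind each RPKM value was recovered as well and can be set against RefSeq on GRCm38.p6. For Stip1 (chr19:7020696-7040026) and Chordc1 (chr9:18292267-18314000) the length equalled the RefSeq gene span with introns, 19331 and 21734 bp. Hsp90ab1 (chr17:45567778-45573261) differed by 13 bp and Ptges3 (chr10:128058982-128077254) by 46 bp. Ahsa1 (chr12:87266415-87273998) was counted over 7252 bp against 7584 bp in RefSeq, and Fkbp4 (chr6:128430103-128438656) and Cdc37 (chr9:21139431-21149934) were 389 and 862 bp longer. Hsp90aa1 (chr12:110691036-110696395) was counted over 12124 bp against 5360 bp in RefSeq, and Fkbp5 (chr17:28398753-28486149) over 118430 bp against 87397 bp. RPKM is therefore relative to whole gene spans. It understates spliced RNA of a long gene such as Fkbp5, and the levels of different genes are comparable only per base of span.

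In chromatin, both HSP90 genes and 5 of the 7 co-chaperone genes stood 2-fold or more above Control in PostHS cells, and Cdc37 and Fkbp5 did not. The median of the 9 genes was 4.87-fold, with a range of 1.00-fold to 18.3-fold, while the median of all 12921 genes was 0.940-fold. At least 2-fold higher were 17.2% of all genes and at least 2-fold lower 18.5%, against 7 and 0 of these 9. Together the 9 genes took 0.184% of PostHS chromatin reads and 0.0367% of Control chromatin reads.

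In cytoplasm the ratios of the same genes ran between 0.411 and 2.17, and 5 of the 9 intervals did not hold 1. Chordc1 was the single gene of the 9 at least 2-fold higher in PostHS cytoplasm, and Fkbp5 the single one at least 2-fold lower. Of all 8673 genes, 6.43% were at least 2-fold higher and 21.3% at least 2-fold lower. The median of the 9 was 0.968-fold, beside 0.657-fold for all genes. Their combined share of reads was 0.107% in PostHS and 0.103% in Control cytoplasm.

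**Figure D1:**
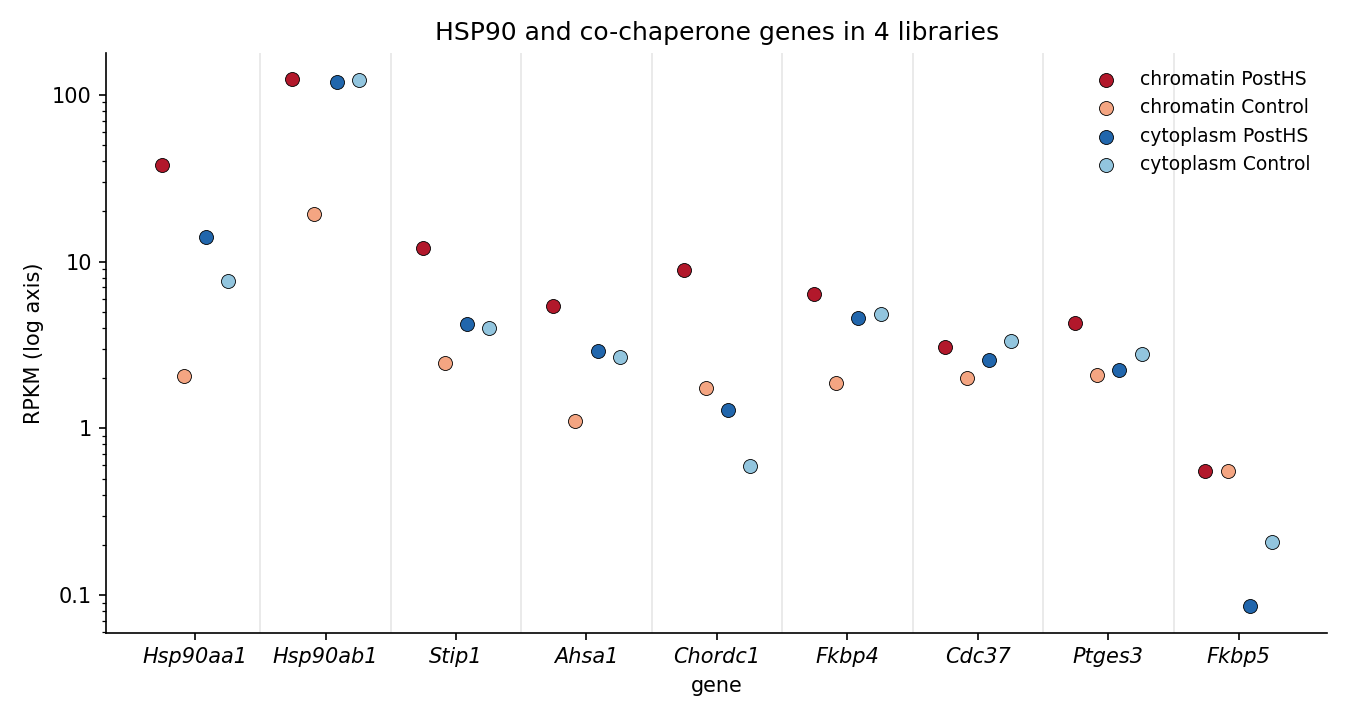
RPKM (log axis) of the 9 genes, with 1 point per library in the order chromatin PostHS, chromatin Control, cytoplasm PostHS, cytoplasm Control. Hsp90ab1 is the highest and Fkbp5 the lowest gene in each library, and the chromatin Control point lies below the chromatin PostHS point for every gene except Fkbp5, where both are at 0.55 RPKM.

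Hsp90aa1 (ENSMUSG00000021270), the HSP90 gene known as the stress-inducible one, had 37.7 RPKM in PostHS chromatin against 2.06 RPKM in Control chromatin, from 8922 and 459 reads. This was an 18.3-fold difference (16.6 to 20.1), and 2.41% of all genes tested in chromatin had a ratio at least as high. In cytoplasm it had 13.9 RPKM in PostHS against 7.67 RPKM in Control cells, from 1882 and 771 reads, a 1.82-fold difference (1.67 to 1.98). The interval lay above 1 in both fractions, and the chromatin ratio was 10.0 times the cytoplasmic one (8.86 to 11.4). Hsp90aa1 was the 146th gene by RPKM in PostHS chromatin and the 2909th in Control chromatin. Its ratios cover the whole counted span of 12124 bp, against 5360 bp in RefSeq. The RPKM values do not show which of its reads fell outside the RefSeq gene.

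Hsp90ab1 (ENSMUSG00000023944), the HSP90 gene known for steady expression without stress, was the highest of the 9 in every library. It had 123.7 RPKM in PostHS chromatin against 19.3 RPKM in Control chromatin, from 13285 and 1949 reads, a 6.41-fold difference (6.11 to 6.72). Of all genes tested in chromatin, 5.81% had a ratio at least as high. In cytoplasm it had 118.5 RPKM in PostHS and 122.3 RPKM in Control cells, a ratio of 0.968 with an interval of 0.935 to 1.00. Control chromatin was the low level on the deposited scale. How the chromatin levels stand to the cytoplasmic ones depends on the scale, and the PostHS log2 ratio of chromatin over cytoplasm was 0.06 as deposited, 1.32 at the same RPKM sum and -2.11 with medians set to 0.

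The balance between the HSP90 genes can be read within each library, free of the library scale. For every 100 reads of Hsp90ab1 there were 67.2 of Hsp90aa1 in PostHS chromatin (65.4 to 69.0) and 23.6 in Control chromatin (21.2 to 26.1). In cytoplasm there were 26.0 in PostHS (24.7 to 27.3) and 13.8 in Control cells (12.8 to 14.9). Hsp90aa1 therefore weighed more against Hsp90ab1 after heat shock in each fraction, beyond counting error of reads. Per base of span Hsp90ab1 stayed above Hsp90aa1 in all 4 libraries, also when Hsp90aa1 reads were set over its shorter RefSeq span (85.2 RPKM in PostHS chromatin). The sources used here do not say how reads matching both genes, or related copies elsewhere, were counted, so the split between these similar genes is uncertain.

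**Figure D2:**
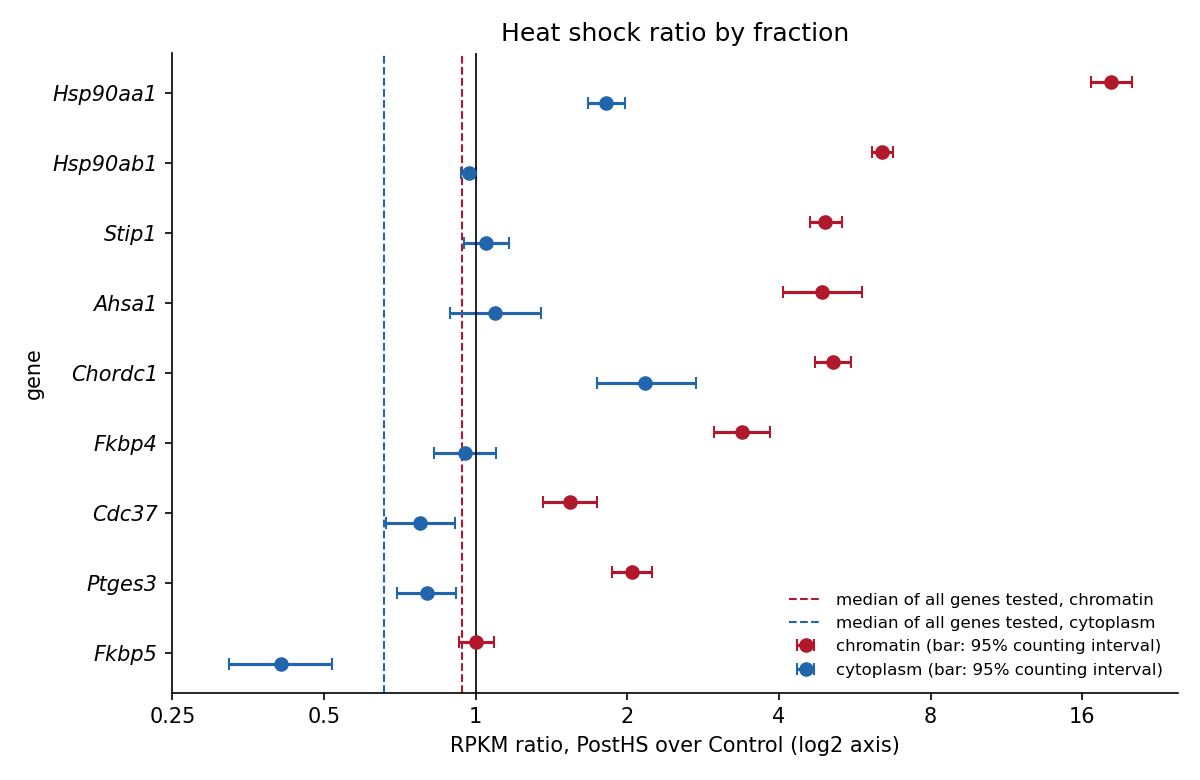
RPKM ratio of PostHS over Control (log2 axis) for each gene in chromatin and in cytoplasm. Points are single-library ratios, bars exact 95% counting intervals, and dashed lines the medians of all genes tested in each fraction, 0.940 in chromatin and 0.657 in cytoplasm.

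Stip1, Ahsa1 and Chordc1 formed a group with nearly the same chromatin ratio. Stip1 (ENSMUSG00000024966), the adaptor that joins HSP70 to HSP90, had 12.1 RPKM in PostHS against 2.45 RPKM in Control chromatin, a 4.95-fold difference (4.60 to 5.33). Ahsa1 (ENSMUSG00000021037), the activator of the HSP90 ATPase, had 5.38 against 1.10 RPKM there, a 4.87-fold difference (4.08 to 5.85). Chordc1 (ENSMUSG00000001774), a zinc-binding co-chaperone that contacts HSP90, had 8.93 against 1.75 RPKM in the same libraries, a 5.11-fold difference (4.72 to 5.55). The 3 intervals overlap, so counting error alone does not order these genes.

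In cytoplasm the group came apart. Stip1 had 4.21 RPKM in PostHS and 4.01 RPKM in Control cytoplasm, and Ahsa1 had 2.91 and 2.66 RPKM in those libraries. Their ratios of 1.05 (0.948 to 1.16) and 1.09 (0.891 to 1.35) had intervals that hold 1. Chordc1 had 1.29 RPKM in PostHS against 0.594 RPKM in Control cytoplasm, from 312 and 107 reads, a 2.17-fold difference (1.74 to 2.73). Its cytoplasmic interval lay above those of Stip1 and Ahsa1. Chordc1 is also the gene with the run of 5 heat shock units shown above, and whether that run and the cytoplasmic level are related was not tested.

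Fkbp4 and Fkbp5 encode related immunophilins, proteins that sit in the HSP90 complexes of steroid receptors, and they differed in both fractions. Fkbp4 (ENSMUSG00000030357), which helps the glucocorticoid receptor reach the nucleus, had 6.35 RPKM in PostHS against 1.88 RPKM in Control chromatin, a 3.38-fold difference (2.97 to 3.84). In cytoplasm it had 4.59 RPKM in PostHS and 4.81 RPKM in Control cells, a ratio of 0.954 (0.829 to 1.10). Fkbp5 (ENSMUSG00000024222), which lowers the receptor's affinity for hormone and is itself induced by the receptor, had 0.552 RPKM in PostHS and 0.551 RPKM in Control chromatin. These came from 1277 and 1198 reads and gave a ratio of 1.00 (0.925 to 1.09). In cytoplasm Fkbp5 had 0.0857 RPKM in PostHS against 0.209 RPKM in Control cells, from 113 and 205 reads, a ratio of 0.411 (0.323 to 0.519). Of all genes tested in cytoplasm, 9.93% had a ratio at least as low as Fkbp5. Against the cytoplasmic median of all genes, Fkbp5 stood at 0.625 and Fkbp4 at 1.45.

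Cdc37 and Ptges3 had the lowest chromatin ratios apart from Fkbp5. Ptges3 (ENSMUSG00000071072) had 4.26 RPKM in PostHS against 2.08 RPKM in Control chromatin, a 2.04-fold difference (1.87 to 2.24) whose interval holds 2. Cdc37 (ENSMUSG00000019471), the kinase adaptor, had 3.07 against 2.00 RPKM there, a 1.54-fold difference (1.36 to 1.74), and 25.2% of all genes had a ratio at least as high. In cytoplasm Ptges3 had 2.24 RPKM in PostHS against 2.80 RPKM in Control cells, a ratio of 0.799 (0.699 to 0.914). Cdc37 had 2.58 RPKM in PostHS against 3.33 RPKM in Control cytoplasm, a ratio of 0.776 (0.662 to 0.909). Both cytoplasmic intervals lay below 1 and above the median of all genes.

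Directions near 1 depend on how libraries are scaled, because RPKM is set against the total of each library. The 10 genes with the most reads took 32.6% of PostHS and 21.8% of Control chromatin reads, and 79.8% and 75.9% of cytoplasmic reads. With each library rescaled to the same RPKM sum, every chromatin ratio is multiplied by 0.641. Ptges3 then no longer reached 2-fold, and the log2 ratios of Cdc37 and Fkbp5 turned to -0.02 and -0.64. The Ptges3 call in chromatin was also lost with pseudocounts of 1 RPKM (log2 0.77) and 0.1 RPKM (log2 0.996). With the cytoplasmic median of all genes set to 0, every cytoplasmic ratio is multiplied by 1.52, and 8 of the 9 genes lay above 1 there, all but Fkbp5. After this centring, above 1 means above the median of all genes. Another scale left out of each total the 10 highest genes, chosen once by mean RPKM over the 4 libraries. On that scale, and with the median set to 0, Hsp90aa1 joined Chordc1 as at least 2-fold higher in cytoplasm, as were 7.04% and 9.6% of all genes. The Chordc1 call in cytoplasm was lost at the same RPKM sum (log2 0.89) and with a pseudocount of 1 RPKM (log2 0.52). The lower call of Fkbp5 there was lost with pseudocounts of 1 RPKM (log2 -0.15) and 0.1 RPKM (log2 -0.73) and with the median set to 0 (log2 -0.68). Hsp90aa1, Hsp90ab1, Stip1, Ahsa1, Chordc1 and Fkbp4 were at least 2-fold higher in PostHS chromatin under the main and the 5 alternative scales and pseudocounts.

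**Figure D3:**
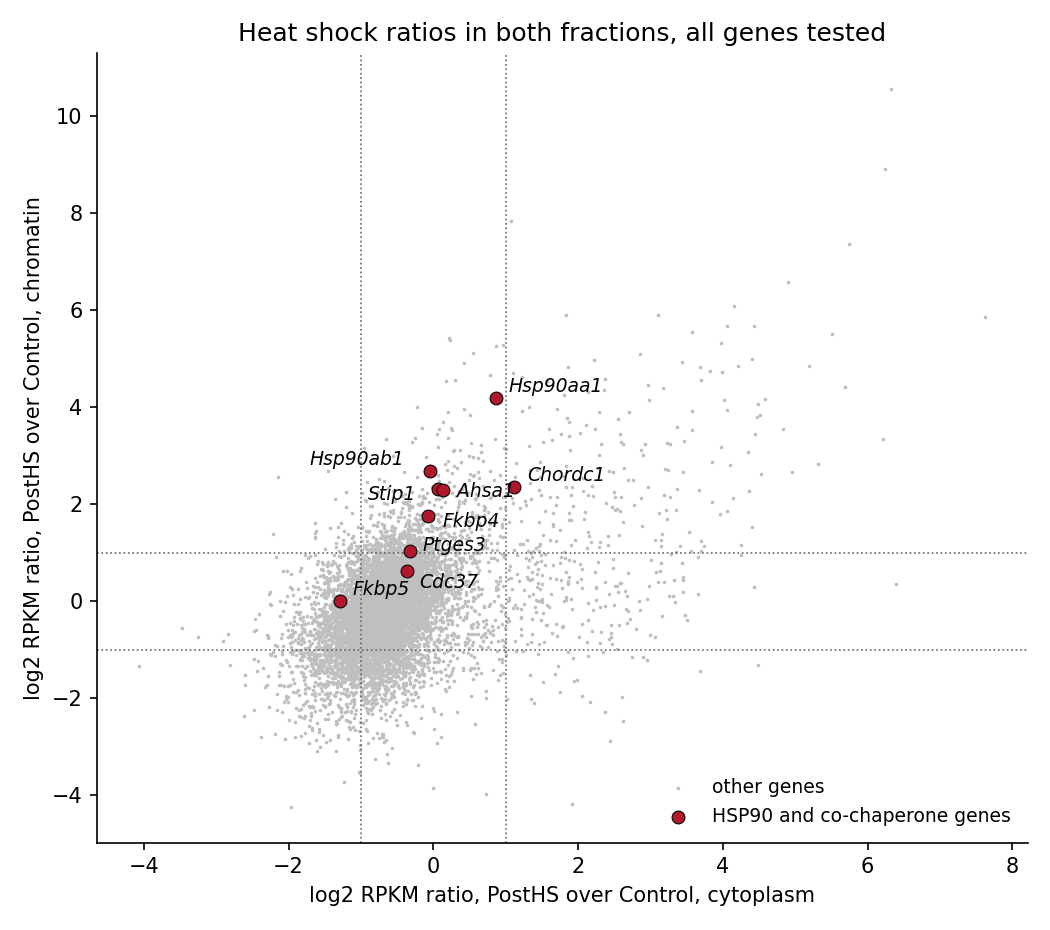
Log2 RPKM ratio of PostHS over Control in cytoplasm (x axis) and in chromatin (y axis) for 8440 genes with at least 50 reads in each comparison, 1 point per gene, with the 9 HSP90 and co-chaperone genes in red and dotted lines at 2-fold. Hsp90aa1, Hsp90ab1, Stip1, Ahsa1, Fkbp4 and Ptges3 lie above the upper line and between the vertical ones.

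Seen in both fractions together on the deposited scale, 6 of the 9 genes stood 2-fold or more above Control in PostHS chromatin while staying within 2-fold in cytoplasm. These were Hsp90aa1, Hsp90ab1, Stip1, Ahsa1, Fkbp4 and Ptges3, and 7.25% of 8440 genes showed that pattern. Chordc1 was at least 2-fold higher in both fractions, as were 2.39% of genes, and Fkbp5 was at least 2-fold lower in cytoplasm and within 2-fold in chromatin, as were 13.9%. The chromatin heat shock ratio was 2-fold or more above the cytoplasmic one for 8 of the 9 genes, against 25.4% of all genes, and 2-fold or more below it for 0 of the 9, against 7.09%. The exception, Cdc37, had a ratio of ratios of 1.98 (1.63 to 2.41). All 9 genes lay above 1, from 1.98 for Cdc37 to 10.0 for Hsp90aa1, with a median of 3.54 beside 1.40 for all genes. Hsp90ab1 followed at 6.62 (6.24 to 7.02), then Stip1 at 4.71 (4.16 to 5.34), Ahsa1 at 4.45 (3.41 to 5.82) and Fkbp4 at 3.54 (2.94 to 4.27). Ptges3 at 2.56 (2.18 to 3.00), Fkbp5 at 2.44 (1.91 to 3.11) and Chordc1 at 2.35 (1.86 to 2.97) had overlapping intervals. Chordc1 and Fkbp5 reached similar values by different routes, Chordc1 through a higher level in both fractions and Fkbp5 through a lower level in cytoplasm alone. With each library at the same RPKM sum, or with medians set to 0, 5 of the 9 genes passed 2-fold in this measure. These scales multiply the measure by 0.751 and 0.699 for every gene. The share of all genes past 2-fold was not counted on them, so the lower count is not read as particular to the 9 genes. To set these genes beside others of like length, genes with spans in the range of the 8 genes other than Fkbp5 were also counted. Of 4250 such genes in chromatin, 15.8% were 2-fold or more higher in PostHS cells and 17.2% lower, and of 2668 in cytoplasm, 5.66% were higher and 18.0% lower.

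**Figure D4:**
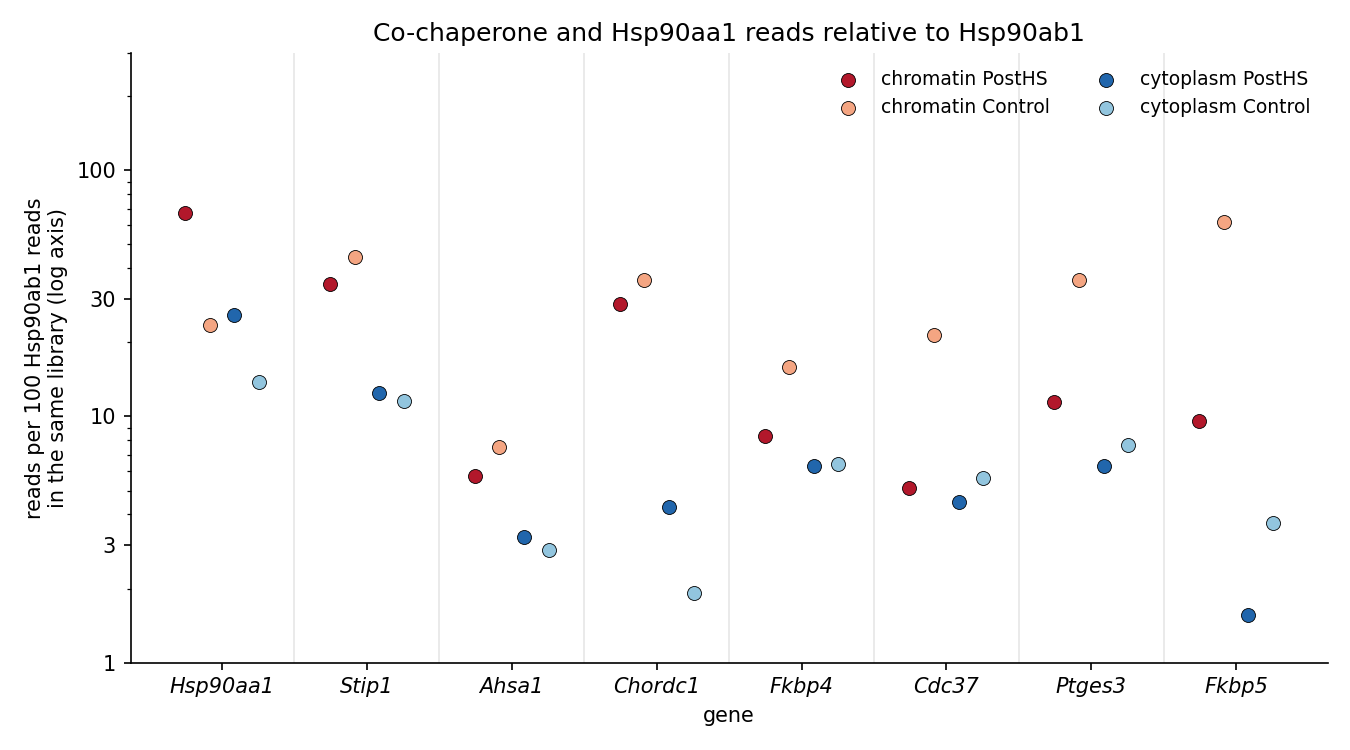
Reads of each gene per 100 reads of Hsp90ab1 in the same library (log axis), with 1 point per library in the order chromatin PostHS, chromatin Control, cytoplasm PostHS, cytoplasm Control. In chromatin, Hsp90aa1 is the gene whose PostHS point lies above its Control point, and all 7 co-chaperone genes lie lower in PostHS. Of all genes tested in chromatin, 94.2% had a PostHS over Control ratio no higher than that of Hsp90ab1.

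Relative to Hsp90ab1, the co-chaperone genes took a smaller part of chromatin reads after heat shock. Most genes did the same, since 94.2% of 12921 had a chromatin PostHS over Control ratio no higher than that of Hsp90ab1. The direction alone is therefore not particular to the co-chaperone genes. For every 100 Hsp90ab1 reads, Stip1 had 34.5 in PostHS against 44.6 in Control chromatin, and Chordc1 had 28.5 against 35.8. The gap was wider for Fkbp4, with 8.36 in PostHS against 15.9 in Control chromatin, and for Ptges3, with 11.5 against 36.0. Cdc37 had 5.13 in PostHS against 21.4 in Control chromatin, and Fkbp5 had 9.61 against 61.5. The mixture of these RNAs on chromatin therefore differed between conditions, with the HSP90 genes making up 61.8% of the reads of the 9 genes in PostHS and 35.7% in Control chromatin. In cytoplasm the HSP90 genes held 76.5% of these reads in PostHS and 74.2% in Control cells. Stip1 had 12.5 reads per 100 of Hsp90ab1 in PostHS against 11.5 in Control cytoplasm, and Chordc1 had 4.30 against 1.92. Ahsa1 was also higher, with 3.24 against 2.87, and the other 4 co-chaperone genes were lower in PostHS cytoplasm. Fkbp5 had 1.56 in PostHS against 3.68 in Control cytoplasm, Cdc37 4.51 against 5.63, Ptges3 6.30 against 7.64 and Fkbp4 6.30 against 6.40.

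Chromatin was then set against cytoplasm within each condition, using the same 4 libraries as above. In PostHS cells the chromatin level was 2-fold or more above the cytoplasmic one for 4 of the 9 genes and 2-fold or more below it for 0, against 76.7% and 5.24% of 12103 genes. In Control cells it was above for 2 and below for 4, against 69.3% and 6.31% of 11068 genes. Among genes of like length these shares were 67.6% above and 3.86% below in PostHS, and 51.8% above and 5.04% below in Control cells. The median ratio of all genes was 4.50 in PostHS and 3.48 in Control cells, and 7 of the 9 genes lay below it in PostHS and 9 in Control cells. Among genes of like length the medians were 3.08 and 2.10. Of the genes other than Fkbp5, Chordc1 alone lay above them, in both conditions. Hsp90ab1 had a chromatin to cytoplasm ratio of 1.04 in PostHS (1.01 to 1.07) and 0.158 in Control cells (0.150 to 0.166). In Control cells 1.68% of genes had a ratio at least as low as Hsp90ab1, and in PostHS cells 11.3% did. Hsp90aa1 had 2.70 in PostHS (2.57 to 2.84) and 0.269 in Control cells (0.239 to 0.302). Stip1 had 2.88 and 0.612, Ahsa1 1.85 and 0.415, and Fkbp4 1.38 and 0.391 in PostHS and Control cells. Chordc1, at 6.92 in PostHS and 2.94 in Control cells, and Fkbp5, at 6.44 and 2.64, were the 2 genes above 1 in both conditions. Cdc37 had 1.19 in PostHS and 0.600 in Control cells, and Ptges3 had 1.90 and 0.743. These calls depend on the scale. At the same RPKM sum, 9 genes were 2-fold or more above and 0 below in PostHS, against 91.1% and 2.21% of all genes. In Control cells 3 were above and 0 below, against 91.7% and 1.67%. There the log2 ratios of Ahsa1 and Fkbp4 turned to 0.40 and 0.31. With medians set to 0, 0 were above and 5 below in PostHS, against 21.9% and 26.1% of all genes. In Control cells 0 were above and 7 below, against 23.6% and 26.9%. Without the 10 highest genes in the total, 2 were above and 0 below in PostHS, against 60.3% and 9.28% of all genes. In Control cells 0 were above and 7 below, against 49.0% and 12.7%. A pseudocount of 1 RPKM left 0 above in Control cells, against 17.7% of all genes. On the deposited scale 7 genes lay above 1 in PostHS and below 1 in Control cells, and the number was 2 at the same RPKM sum, 2 with medians set to 0 and 4 without the 10 highest genes. The share of all genes that cross 1 in this way was not counted, so the number is not read as particular to these genes.

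**Figure D5:**
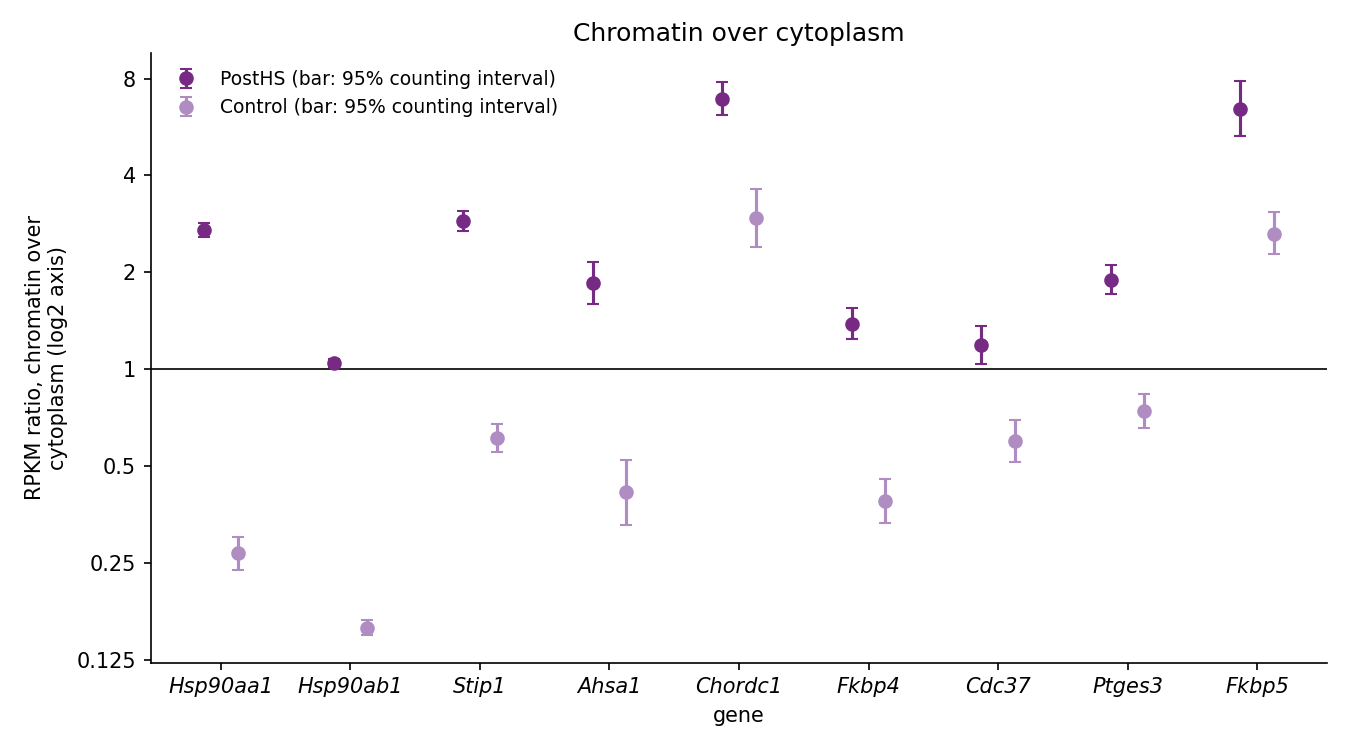
RPKM ratio of chromatin over cytoplasm (log2 axis) for each gene in PostHS cells (left point) and Control cells (right point), with exact 95% counting intervals. The PostHS ratio is above the Control ratio for all 9 genes, and the median of PostHS over Control for this ratio was 1.40 over 8440 genes. On this deposited scale 7 of them lie on opposite sides of 1 in the 2 conditions, a number that was 2 to 4 on the other scales.

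Likeness of pattern was measured as the Euclidean distance over 3 log2 ratios, PostHS over Control in chromatin, the same in cytoplasm, and chromatin over cytoplasm in Control cells, across 4278 genes with at least 200 reads in each fraction. Within the 9 genes, Stip1 and Ahsa1 were each other's nearest at a distance of 0.56, with 4 and 3 of all genes nearer. Fkbp4 was 0.57 from Ahsa1, with 11 nearer. Cdc37 and Ptges3 were each other's nearest of the 9 at 0.52, but 139 of all genes lay nearer to Cdc37 and 83 nearer to Ptges3. Hsp90aa1 lay 1.92 from its nearest, Hsp90ab1, with 13 genes nearer, and Hsp90ab1 lay 1.46 from Ahsa1, with 37 nearer. Chordc1 lay 2.50 from Stip1 and Fkbp5 2.31 from Ptges3, with 507 and 3270 genes nearer. The nearest gene to Hsp90aa1 of all those compared was ENSMUSG00000020542, at 0.55, with ratios of 16.1 in chromatin and 2.50 in cytoplasm. The nearest to Hsp90ab1 was ENSMUSG00000075918, at 0.53, with ratios of 4.99 and 0.898. Its recovered length was 119 bp, against 5497 bp for Hsp90ab1. These identifiers were given no symbol here.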

How the data were processed

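RNA-seq libraries of chromatin and cytoplasm were analysed, 1 per fraction and condition, grouped by sample title. The deposited files pair each Ensembl gene identifier with an RPKM value that the authors computed, and list no gene without a read. Cutadapt, STAR and GRCm38 are named without versions, per the submitters' processing notes. Per the labels' protocols, RNA fragments of 40 to 60 nt were cut from a gel. Not given in the sources used here are the counting tool, the annotation version, the use of strand and what was done with reads that match more than 1 gene, so overlapping genes and near-identical copies are uncertain.

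Library totals were recovered as greatest common divisors of inverse RPKM values (20000 random pairs of genes, tolerance 0.002). Reads and gene length were the smallest whole numbers giving all 4 values, with a relative error above 1e-12 for 0 genes. Reads sharing a factor with the length come out too small, and the length with them. Ratios between libraries that both have reads stay intact, and intervals widen. Such a gene can miss the read minimum, and the value set for a library with no read is then too high. The steps were tested on simulated data.

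Ratios are plain RPKM ratios with no pseudocount. Genes needed 50 reads over the 2 compared libraries, and a library with no read was set to 3 reads. Alternatives covered pseudocounts, filters and scaling. The interval of a ratio of ratios is a normal one on the log scale from 4 read counts. Python 3.11.15, numpy 2.4.6, pandas 2.3.3, scipy 1.17.1 and matplotlib 3.10.9 were used.

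The 9 genes, the comparisons and the motifs were chosen with earlier results of these data known. The rule for named genes took all 9, plus the nearest genes with a symbol, which gave none, so the nearest identifier is printed for Hsp90aa1 and Hsp90ab1. Lists of other HSP90 partners, clients, glucocorticoid receptor targets and marker genes were not analysed here, since identifiers were not paired with symbols, and protein sequences were not used. Names of the 9 came with their identifiers.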

Additional observations from a re-analysis of the deposited data

Results flagged for a closer look

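For 5 genes the PostHS over Control ratio was above 1 in chromatin and below 1 in cytoplasm. How many of all genes did so was not counted, and the all-gene medians were 0.940 in chromatin and 0.657 in cytoplasm. The pattern is therefore not read as particular to these genes. The difference of log2 ratios, chromatin minus cytoplasm, was 2.73 for Hsp90ab1, 1.82 for Fkbp4, 1.35 for Ptges3, 1.29 for Fkbp5 and 0.99 for Cdc37. With 1 library per group this difference was not tested against variation between cultures. Counting intervals held 1 for the cytoplasmic ratios of Hsp90ab1 and Fkbp4 and for the chromatin ratio of Fkbp5. With ratios centred on the all-gene median, the cytoplasmic ratios of Hsp90ab1, Fkbp4, Ptges3 and Cdc37 lay above 1, and the differences kept their sign for all 9 genes on the scales and pseudocounts used.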

How the results depend on the processing

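The count of genes of the 9 at least 2-fold higher in PostHS chromatin was 7, and it was 6 or 7 under the 5 alternatives. With a pseudocount of 1 RPKM, cytoplasm had 0 of the 9 at least 2-fold higher and 0 lower, and 0 were at least 2-fold toward chromatin in Control cells. A pseudocount of 0.1 RPKM left 0 at least 2-fold lower in cytoplasm. At the same RPKM sum, 0 were at least 2-fold higher in PostHS cytoplasm, 9 were at least 2-fold toward chromatin in PostHS cells, 0 toward cytoplasm in Control cells, and 5 had a heat shock ratio at least 2-fold higher in chromatin. The chromatin over cytoplasm log2 ratios in Control cells then turned to 0.40 for Ahsa1 and 0.31 for Fkbp4. With medians set to 0, 2 were at least 2-fold higher and 0 lower in PostHS cytoplasm, and 5 had a heat shock ratio at least 2-fold higher in chromatin. On that scale 0 were at least 2-fold toward chromatin in either condition, 5 toward cytoplasm in PostHS and 7 in Control cells. The log2 ratio of chromatin over cytoplasm turned to -0.74 for Hsp90aa1 and -0.64 for Stip1 in PostHS, and to -0.24 for Chordc1 and -0.40 for Fkbp5 in Control cells. Without the 10 highest genes in the total, 2 were at least 2-fold higher in PostHS cytoplasm, 2 toward chromatin in PostHS, and 0 toward chromatin and 7 toward cytoplasm in Control cells. For a heat shock ratio at least 2-fold higher in chromatin, the share of all genes was counted on the deposited scale only.

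Shares of all genes past 2-fold moved as well. With a pseudocount of 1 RPKM they were 4.08% higher and 1.83% lower in chromatin after heat shock, 1.83% and 0.899% in cytoplasm, and for chromatin over cytoplasm 21.0% and 2.45% in PostHS and 17.7% and 4.04% in Control cells. With 0.1 RPKM, 11.3% were higher in chromatin and 6.00% lower in cytoplasm. At the same RPKM sum, 10.4% were higher and 39.0% lower in chromatin, and 5.87% higher and 36.1% lower in cytoplasm. For chromatin over cytoplasm 91.1% were higher and 2.21% lower in PostHS, and 91.7% and 1.67% in Control cells. With medians set to 0, 9.6% were higher and 3.74% lower in cytoplasm. For chromatin over cytoplasm on that scale, 21.9% were higher and 26.1% lower in PostHS, and 23.6% higher and 26.9% lower in Control cells. Without the 10 highest genes, 7.04% were higher and 14.6% lower in cytoplasm. For chromatin over cytoplasm on that scale, 60.3% were higher and 9.28% lower in PostHS, and 49.0% and 12.7% in Control cells. A minimum of 20 reads gave 9.91% higher in PostHS cytoplasm. A mean of at least 1 RPKM gave 9.94% lower in PostHS chromatin, and 9.18% and 16.6% lower in chromatin than cytoplasm in PostHS and Control cells. At least 1 read in both libraries gave 16.3% higher in PostHS cytoplasm, and 8.49% and 11.4% lower in chromatin than cytoplasm. Genes higher in PostHS made up 48.1% of those past 2-fold in chromatin and 23.2% in cytoplasm, 21.0% and 14.0% at the same RPKM sum, 53.1% and 72.0% with medians set to 0, and 58.1% and 32.6% without the 10 highest. For chromatin over cytoplasm the shares were 93.6% in PostHS and 91.7% in Control cells, 45.6% and 46.7% with medians set to 0, and 86.7% and 79.4% without the 10 highest.

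The counts over genes of like length and the Hsp90aa1 level on its RefSeq span were added after seeing the data. No paired analysis was possible because each group has 1 library. Counts on lists of other HSP90 genes were not run. Depth limits Chordc1, Ahsa1 and Fkbp5 in cytoplasm most, where the lower read counts were 107, 160 and 113.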
